A study of Mus musculus with 12 samples.

Results

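The 40 genes described here code for very long neuronal mRNAs that are known from published work as mRNAs bound by FMRP, the fragile X messenger ribonucleoprotein. They are Map1a, Map1b, Map2, Ank2, Ank3, Sptan1, Sptbn1, Kif1a, Kif1b, Kif5a, Kif5c, Dync1h1, Myo5a, Tln2, Syne1, Trio, Agap2, Nisch, Huwe1, Herc1, Herc2, Ubr4, Usp9x, Ryr2, Itpr1, Atp2b2, App, Sorl1, Lrp1, Cltc, Celsr2, Celsr3, Dscam, Camta1, Cic, Ncor1, Ep400, Trrap, Nf1 and Apc. They were taken by gene symbol from a fixed list, and all 40 were found among the 24421 genes of the deposited count tables and among the 14564 genes with enough counts to test. Binding to FMRP was not measured in these libraries.

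The study sequenced RNA pelleted through a sucrose cushion, the polyribosomal fraction, from the hippocampus of C57/Bl6 mice aged 6 weeks. The 6 control and 6 fear case libraries were compared. One protocol text is given for both groups: after acclimation, each mouse spent 8 min in an unfamiliar context and 7 min back in its home cage, and tissue was taken 15 min after the exposure began. The sources used here do not tell what the fear case mice received beyond this, and the labels do not say that each library is a separate mouse, so p-values measure the spread between these libraries.

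FMRP is an RNA-binding protein that is abundant in neurons, sits on polyribosomes and is known to slow translational elongation on the mRNAs it binds. Loss of FMRP causes fragile X syndrome, and in mice it alters synaptic plasticity in the hippocampus. Its brain targets lean towards long coding sequences for cytoskeletal, motor, ubiquitin-pathway and chromatin proteins. Short motifs such as TGGA or AGGA and ACTG or ACTT have been described in bound mRNAs.

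Stretches of coding sequence show what these mRNAs look like where such motifs are dense. Each line below is the 60-base coding window of one gene that holds the most TGGA or AGGA matches, 5′ to 3′ on the mRNA strand and written with T, with the matches in capitals. The sequences come from GENCODE vM21 transcripts (GRCm38). The microtubule-associated pair Map1a and Map1b, the motors Kif1a and Kif5c, the lowest-p genes Trio and Usp9x, and App are shown because the comparisons below turn on them or on their families.
Map1a: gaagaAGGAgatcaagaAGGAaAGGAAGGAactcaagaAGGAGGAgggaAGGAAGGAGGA
Map1b: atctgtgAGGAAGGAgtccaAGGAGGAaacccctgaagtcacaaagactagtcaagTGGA
Kif1a: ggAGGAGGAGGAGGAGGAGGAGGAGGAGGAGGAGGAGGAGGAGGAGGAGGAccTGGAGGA
Kif5c: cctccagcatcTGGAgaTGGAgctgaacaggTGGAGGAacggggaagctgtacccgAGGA
Trio: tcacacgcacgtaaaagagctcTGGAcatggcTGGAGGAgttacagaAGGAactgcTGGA
Usp9x: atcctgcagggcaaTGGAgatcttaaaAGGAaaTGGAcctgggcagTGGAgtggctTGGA
App: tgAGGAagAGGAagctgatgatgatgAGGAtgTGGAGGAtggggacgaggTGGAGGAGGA

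The Kif1a window lies at chr1:93051484-93051543 on the minus strand, in exon 27, and is an almost unbroken AGG repeat with 18 matches, counted where they overlap. The Map1a window (chr2:121300675-121300734, plus strand, exon 5) holds 9 matches and the App window (chr16:85056419-85056478, minus strand, exon 6) holds 8. The Map1b window (chr13:99434488-99434547, minus strand, exon 5) holds 5, and so do those of Kif5c (chr2:49710828-49722995, plus strand), Trio (chr15:27856194-27871179, minus strand) and Usp9x (chrX:13164860-13165322, plus strand). These last 3 windows cross an exon junction, so their genomic span includes an intron. Exons are numbered along the transcript with the longest coding sequence.

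The motifs were not denser in the 40 mRNAs than in other mRNAs. The median coding sequence held 16.3 TGGA or AGGA matches per kb against a median of 16.3 over 13367 tested coding genes, and 19 of the 40 lay above that median. Usp9x was the lowest at 12.4 per kb and Kif5c the highest at 27.2 per kb. ACTG or ACTT matches came to 8.11 per kb against 8.24 per kb. All 40 coding sequences held both motifs, as did 99.9% and 99.1% of tested coding genes. The longest coding model of Ank3 begins without a start codon, so its values cover an incomplete sequence. No match was searched on the opposite strand, and a match in these letters is no evidence of binding.

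What set the 40 apart was length. Their longest annotated transcripts had a median of 10700 bases against 3463.5 bases over the 14030 tested genes with an annotated length, from 5559 bases for Nisch to 27908 bases for Syne1. All 40 lay above the median, and 34 lay in the longest decile of tested genes, which began at 6.93 kb. Coding sequence had a median of 7647 bases against 1440 bases, from 2310 for App to 26397 for Syne1, which codes for nesprin-1, a giant protein that anchors nuclei to the cytoskeleton. GC content of the coding sequence was similar, at a median of 52.6% against 53.2%.

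Libraries held 18.6 M to 44.2 M gene counts. Fear case 6 was the deepest and the next library had 24.2 M. The 45S ribosomal precursor made up 12.5% of the counts of fear case 6 and 4.55% to 7.98% elsewhere. Neuronal markers were abundant in each library. The summed level of 12 pan-neuronal genes, led by Snap25, was 8142 to 8572 CPM (counts scaled to a common library size) in controls and 8404 to 8969 CPM in fear cases. Of the 12, 10 had a positive fold change, fear case against control, with a median log2 fold change of 0.04. The 10 hippocampal principal-cell markers, led by Camk2a, summed to 3979 to 4513 CPM and 4083 to 4342 CPM. Of these, 5 had a positive fold change, beside 48.6% of all tested genes. Of the 17 choroid plexus markers, none had a positive fold change, beside the same 48.6%. The unadjusted edgeR p was under 0.05 for 15 of them, beside 7.14% of all tested genes. None had an edgeR adjusted p under 0.05, and the lowest was 0.151. Their sum ran from 1077 to 2947 CPM in controls and from 102 to 2224 CPM in fear cases, led by Ttr. Each marker was detected in at least 1 library.

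Levels of the 40 mRNAs spanned 2 orders of magnitude. Per kb of exon, the mean over 12 libraries was highest for Kif5a, a neuron-specific kinesin heavy chain, at 236 CPM per kb (lowest 179, highest 332). Map1b followed at 207 CPM per kb (153 to 274) and Kif5c, another kinesin-1 heavy chain, at 184 CPM per kb (163 to 213). The ranges of these 3 genes overlapped. Within libraries Kif5a stood above Kif5c per kb in all 12, at 1.02 to 1.56 times, and Map1b's place among them is not resolved. Agap2, an Arf GTPase-activating protein, and Map1a came next at 174 and 130 CPM per kb.

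At the other end, Celsr3, an adhesion G protein-coupled receptor that guides axons, was at 1.90 CPM per kb (1.21 to 2.55), and its range overlapped that of no other gene in the set. Trrap, a scaffold of histone acetyltransferase complexes, was at 6.78 CPM per kb (5.51 to 8.40), and Tln2, which codes for talin-2, was at 6.93 CPM per kb (6.02 to 8.58). With the longest transcript in place of all annotated exons as the divisor, Map1b ranked first at 278 CPM per kb and Kif5a second at 263 CPM per kb, and Celsr3 stayed lowest at 1.98 CPM per kb. Trrap and Tln2 then stood at 11.3 and 10.49 CPM per kb, above Dscam at 8.21.

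**Figure D1:**
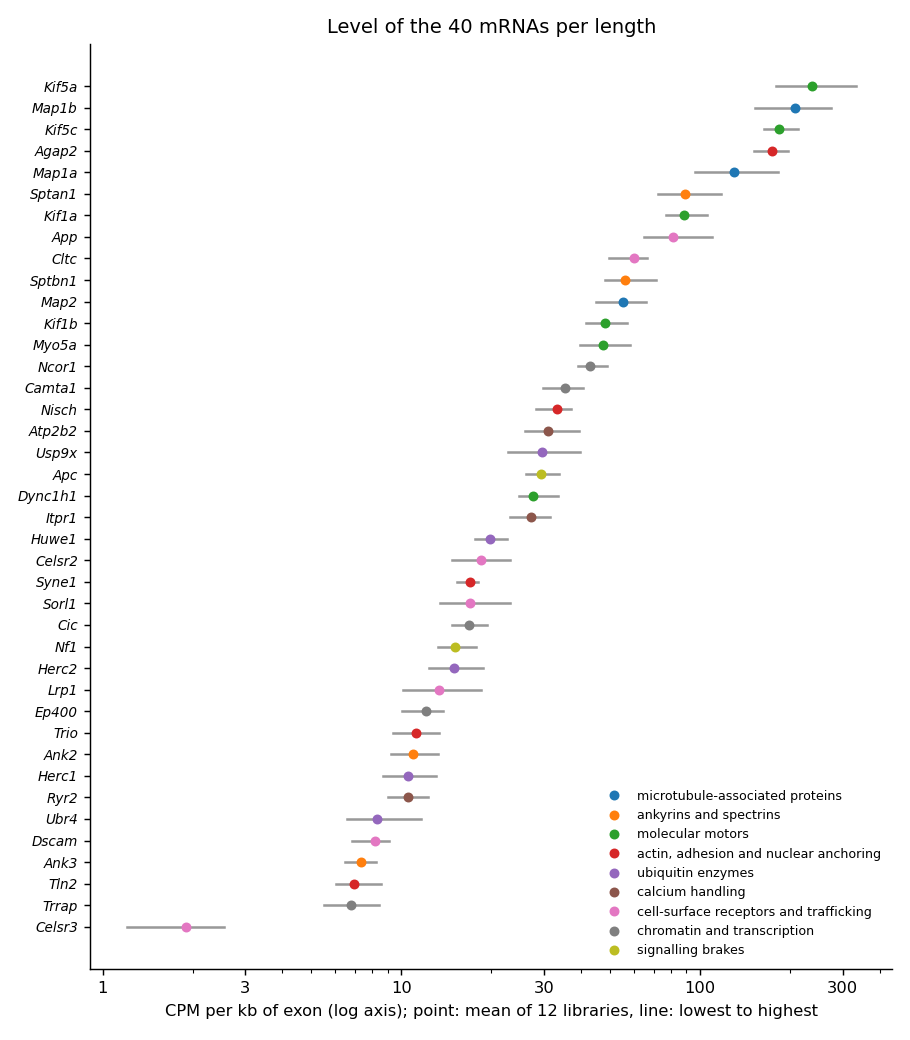
Mean level of each of the 40 mRNAs over 12 libraries in CPM per kb of exon (log axis), with a line from the lowest to the highest library and colour by protein role. Kif5a, Map1b and Kif5c lead with overlapping ranges, and Celsr3, at 1.90 CPM per kb, stands below all the others.

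Between fear case and control, none of the 40 passed the test (edgeR's quasi-likelihood test with Benjamini-Hochberg adjustment over all 14564 genes, adjusted p under 0.05), where 15 genes, or 0.103% of those tested, passed. Adjusted p-values of the 40 ran from 0.524 to 0.987. Trio, Usp9x and Apc, 3 of the 40, had an unadjusted p under 0.05, all with a higher level in fear cases, beside 7.14% of all tested genes in either direction and 2.62% in the higher direction. By DESeq2 and by limma-voom 0 of 40 passed, beside 0.377% and 0.0824% of the genes each tool tested, and 5 had an unadjusted p under 0.05 with each tool, beside 7.86% and 7.48%. The count was 0 of 40 as well with a replicate block, beside 0.124% of tested genes, and with the choroid plexus covariate, beside 0.0343%.

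The fitted changes were small and leaned one way. Of the 40, 35 had a positive log2 fold change, beside 48.6% of all tested genes, and the 5 others were Kif5a, Agap2, Kif1a, Cic and Dync1h1. The median was 0.09 on the log2 scale, against -0.0046 over all tested genes. The values ran from -0.13 for Kif5a to 0.22 for Usp9x. With libraries scaled by total count the median of the 40 was 0.06, and with the choroid plexus marker level as a covariate it was 0.15. That level, as mean log2 CPM, was 3.53 to 4.60 in controls and -0.78 to 2.67 in fear cases 1 to 5. Only fear case 6, at 4.28, lay in the control range, so covariate and group can hardly be told apart in that fit. In the main fit the approximate 95% intervals of the fold changes lay between 0.766, the lower end for Kif5a, and 1.32, the upper end for Map1b. Fewer cells of a type and less RNA per cell cannot be told apart in these bulk samples. Total RNA of the same tissue was not analysed here, and the amount of a transcript and its association with ribosomes cannot be told apart either.

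**Figure D2:**
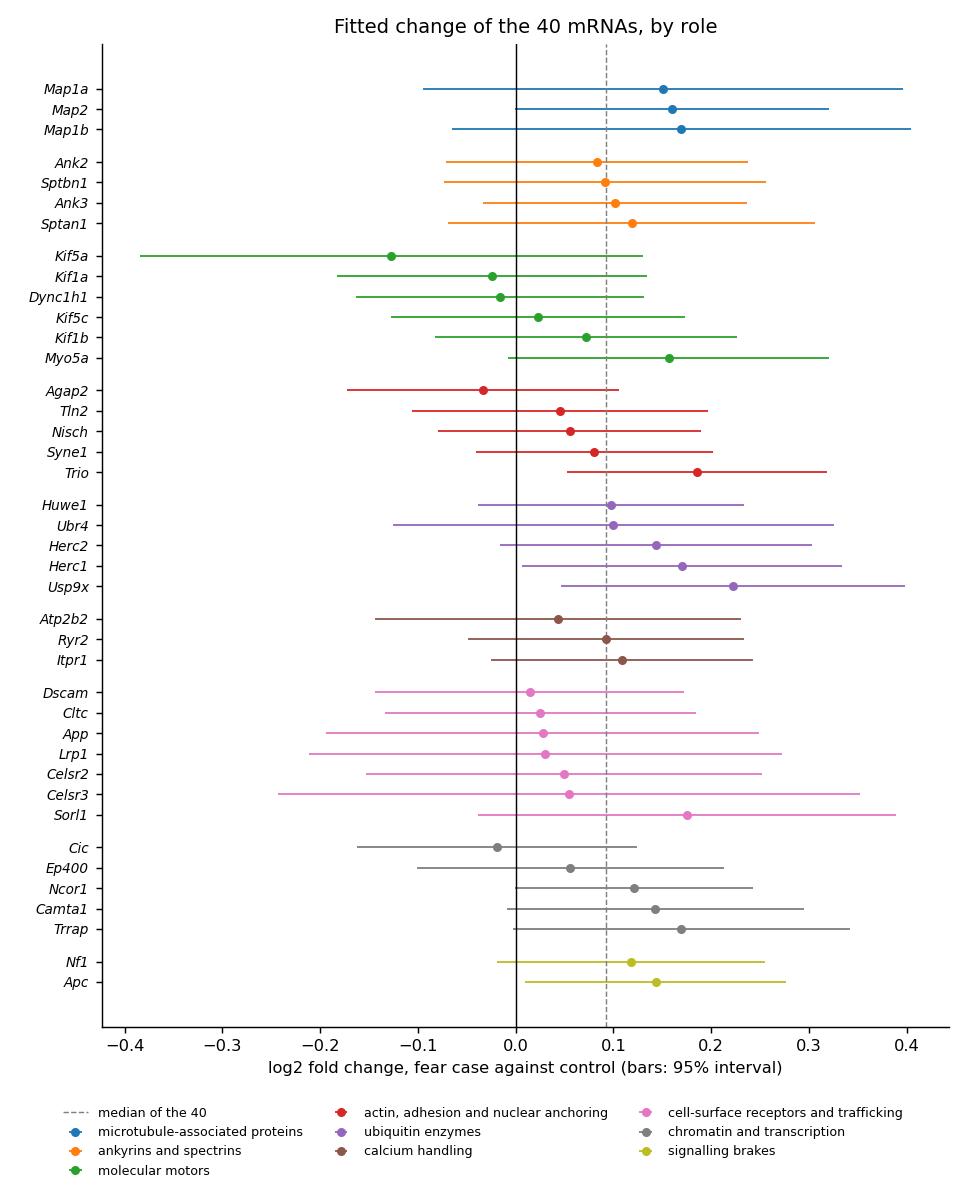
Fitted log2 fold change of each of the 40 mRNAs, fear case against control, from edgeR (6 libraries a group), with approximate 95% intervals as bars and colour by role. The dashed line is the median of the 40. Most points lie to the right of 0, and Kif5a at -0.13 and Usp9x at 0.22 are the extremes.

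The 3 microtubule-associated proteins bundle and stabilise microtubules in axons and dendrites. Map1b was read at 2417, 2928 and 4058 CPM in the lowest, median and highest control and at 2634, 3391 and 4343 CPM in the fear cases. Its groups overlapped over most of their range, control 6 was the highest control, and 2 of the fear cases exceeded every control. The log2 fold change was 0.17 (SE 0.12, n = 6 and 6, edgeR adjusted p = 0.795).

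Map1a was at 1172, 1413 and 2030 CPM in controls and 1288, 1607 and 2225 CPM in fear cases. Map2, the dendritic member, was at 739, 847 and 1003 CPM and at 827, 937 and 1088 CPM. For both genes control 1 was the lowest control, control 6 the highest control and fear case 1 the highest fear case. Log2 fold changes were 0.15 (SE 0.13, edgeR adjusted p = 0.828) and 0.16 (SE 0.08, edgeR adjusted p = 0.716). The values of Map1a and Map1b hung on single libraries: without fear case 1 they were 0.05 and 0.09, and without control 6 they were 0.26 and 0.26.

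Ankyrins tie membrane proteins to the spectrin mesh, and the 4 genes of this group had positive values with a median log2 fold change of 0.10. Ank3, which organises the axon initial segment, was at 226, 238 and 288 CPM in controls and 249, 266 and 284 CPM in fear cases (log2 fold change 0.10, SE 0.07, edgeR adjusted p = 0.787). Ank2 was at 322, 366 and 415 CPM and 347, 389 and 466 CPM (0.08, SE 0.08, edgeR adjusted p = 0.853). The fear case range of Ank3 lay inside that of the controls, and for Ank2 1 fear case library lay above all controls.

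The αII-spectrin gene Sptan1 was read at 966, 1110 and 1358 CPM in controls and 1023, 1246 and 1566 CPM in fear cases (log2 fold change 0.12, SE 0.10, edgeR adjusted p = 0.824). The βII-spectrin gene Sptbn1 was at 838, 948 and 1068 CPM and 896, 999 and 1246 CPM (0.09, SE 0.08, edgeR adjusted p = 0.849). Each spectrin gene had 1 fear case library above all controls, fear case 1 for Sptan1 and fear case 6 for Sptbn1. Without that library the log2 fold change was 0.04 for Sptan1 and 0.02 for Sptbn1, and without fear case 6 that of Ank2 was 0.03.

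The motors carry cargo along microtubules and actin, and they split evenly in sign, 3 of 6 positive, with a median log2 fold change of 0.00. Kif5a was at 1253, 1767 and 2084 CPM in controls and 1281, 1476 and 2324 CPM in fear cases. Fear case 6 alone lay above all controls, and the other 5 fear cases lay within the control range. The log2 fold change was -0.13 (SE 0.13, edgeR adjusted p = 0.868), and -0.27 without fear case 6. Kif5c was at 1167, 1283 and 1456 CPM and 1197, 1303 and 1520 CPM (0.02, SE 0.08, edgeR adjusted p = 0.975).

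Kif1a, a kinesin-3 motor for synaptic vesicle precursors, was at 719, 810 and 983 CPM in controls and 771, 791 and 934 CPM in fear cases (log2 fold change -0.02, SE 0.08, edgeR adjusted p = 0.975). Kif1b was at 732, 794 and 1001 CPM and 815, 859 and 1001 CPM (0.07, SE 0.08, edgeR adjusted p = 0.877). For neither gene did any fear case library lie above or below all controls. Myo5a, the myosin that moves vesicles on actin into spines, was at 585, 649 and 805 CPM and 624, 749 and 865 CPM (0.16, SE 0.08, edgeR adjusted p = 0.735), with 1 fear case library above all controls. Dync1h1, the heavy chain of cytoplasmic dynein, had a log2 fold change of -0.02.

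Of the genes for actin regulation, adhesion and nuclear anchoring, Trio had the lowest p of the 40. Trio codes for a guanine nucleotide exchange factor that activates small GTPases of the cytoskeleton. Its level was 219, 244 and 272 CPM in controls and 263, 272 and 312 CPM in fear cases. Fear cases 1, 3 and 6 lay above all controls, and the lowest fear case lay above 5 of the 6 controls. The log2 fold change was 0.19 (SE 0.07, unadjusted p = 0.0123, edgeR adjusted p = 0.524).

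Agap2 was at 961, 1009 and 1173 CPM in controls and 897, 1048 and 1077 CPM in fear cases (log2 fold change -0.03, SE 0.07, edgeR adjusted p = 0.951). Tln2 was at 111, 120 and 158 CPM and 125, 127 and 138 CPM (0.05, SE 0.08, edgeR adjusted p = 0.934). The groups of each gene overlapped. Syne1 and Nisch, which codes for the integrin-binding protein nischarin, had log2 fold changes of 0.08 and 0.06.

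All 5 ubiquitin enzymes had positive values, with a median log2 fold change of 0.14. Usp9x, a deubiquitinase encoded on the X chromosome, was read at 342, 413 and 470 CPM in controls and 394, 469 and 594 CPM in fear cases. Fear cases 1, 3 and 6 again lay above all controls, and the other 3 lay among them. Its log2 fold change of 0.22 (SE 0.09, unadjusted p = 0.0217, edgeR adjusted p = 0.597) was the largest of the 40, a fold of 1.17.

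Herc1, a giant ubiquitin ligase, was at 238, 267 and 320 CPM in controls and 262, 307 and 359 CPM in fear cases (log2 fold change 0.17, SE 0.08, edgeR adjusted p = 0.709). Herc2 was at 201, 226 and 280 CPM and 227, 250 and 303 CPM (0.14, SE 0.08, edgeR adjusted p = 0.742). The groups of both genes overlapped, with 2 fear case libraries above all controls for Herc1 and 1 for Herc2. Without fear case 6 the value of Herc2 was 0.09. The ligases Huwe1 and Ubr4 each had a log2 fold change of 0.10. Exons of Herc1, Huwe1 and Ubr4 overlap those of Fbxl22, Mir3113 and Emc1 over 1.15%, 0.323% and 0.606% of their length. The strand setting of the counting is unknown here.

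The calcium-handling genes were all positive in sign: Itpr1, the IP3 receptor of the endoplasmic reticulum, at 0.11, Ryr2, a ryanodine receptor, at 0.09, and Atp2b2, a plasma membrane calcium pump, at 0.04 on the log2 scale. Itpr1 was at 422 to 528 CPM in controls and 479 to 577 CPM in fear cases, so the groups overlapped.

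The median log2 fold change of the 7 genes for surface receptors and their trafficking was 0.03. Sorl1, a sorting receptor for the amyloid precursor protein, was at 152, 178 and 220 CPM in controls and 159, 194 and 261 CPM in fear cases (log2 fold change 0.18, SE 0.11, edgeR adjusted p = 0.766, and 0.09 without fear case 6). App itself was read at 881 to 1354 CPM and 846 to 1428 CPM with a log2 fold change of 0.03. The endocytic receptor Lrp1 ran from 204 to 301 CPM in controls and from 180 to 327 CPM in fear cases, with 2 fear case libraries below all controls and 1 above. No other gene of the set had more than 1 library below.

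Celsr2, a relative of Celsr3, was at 173, 206 and 266 CPM in controls and 170, 214 and 265 CPM in fear cases (log2 fold change 0.05, SE 0.10, edgeR adjusted p = 0.948). Celsr3 was at 14.6, 24.3 and 30.8 CPM and 18.8, 23.9 and 27.3 CPM (0.05, SE 0.15, edgeR adjusted p = 0.967). In both genes the fear cases lay almost wholly inside the control range. Cltc, the clathrin heavy chain, and Dscam, a neuronal adhesion molecule, had log2 fold changes of 0.03 and 0.01.

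Of 5 chromatin and transcription genes 4 were positive, and the median log2 fold change was 0.12. Ncor1, a corepressor that recruits histone deacetylase, was at 499, 519 and 573 CPM in controls and 537, 570 and 625 CPM in fear cases (0.12, SE 0.06, edgeR adjusted p = 0.716). Trrap was at 115, 128 and 170 CPM and 133, 146 and 175 CPM (0.17, SE 0.09, edgeR adjusted p = 0.718). Camta1, a calmodulin-binding transcription activator, was at 435, 483 and 556 CPM and 484, 538 and 593 CPM (0.14, SE 0.08, edgeR adjusted p = 0.738).

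Groups overlapped for each of these 3, with 3, 1 and 2 fear case libraries above all controls. Over the whole set, Ncor1, Trio and Usp9x were the only genes with 3 such libraries, none had more, and 11 of 40 had at least 2. Among all tested genes, 9.10% had at least 3 and 21.3% at least 2. The chromatin remodeller Ep400 had a log2 fold change of 0.06 and the repressor Cic one of -0.02. Ncor1 shares 0.640% of its exon length with Pigl on the opposite strand, and Map1a shares 2.24% with Ppip5k1.

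The last pair are brakes on signalling. Apc, which targets β-catenin for destruction and binds microtubule ends, was at 420, 442 and 512 CPM in controls and 440, 499 and 545 CPM in fear cases. The groups overlapped, with 2 fear cases above all controls, and the log2 fold change was 0.14 (SE 0.07, unadjusted p = 0.0469, edgeR adjusted p = 0.690). Nf1, the Ras GTPase-activating protein neurofibromin, was at 211, 228 and 260 CPM and 226, 253 and 281 CPM (0.12, SE 0.07, edgeR adjusted p = 0.756).

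Most of the 40 mRNAs shifted together from library to library, within both groups. The median difference from the control mean, on the log2 scale, was -0.07, -0.01, -0.11, -0.13, 0.07 and 0.20 in controls 1 to 6 and 0.12, 0.04, 0.12, 0.08, 0.00 and 0.28 in fear cases 1 to 6. Control 6 was the highest control for 28 of the 40, or 70.0%, where it was the highest for 18% of all tested genes. Fear case 6 was the highest fear case for 24 of the 40, beside 24.2% of all tested genes. Controls 3 and 4 lay at the low end, with 7 and 2 of the 40 above the control mean. With 1 library left out, the number of the 40 with an unadjusted p under 0.05 ran from 2 to 15. It was 15 without control 6, 10 without fear case 2 and 6 without fear case 5, beside 8.26%, 7.95% and 7.31% of all tested genes in the same fits, and 2 in 6 of the 12 fits. In no case did a gene of the 40 pass the adjusted threshold. The log2 fold change of 27 of the 40 moved by over 1.5 times in at least 1 of these fits, and those of Trio, Usp9x and Apc did not.

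**Figure D3:**
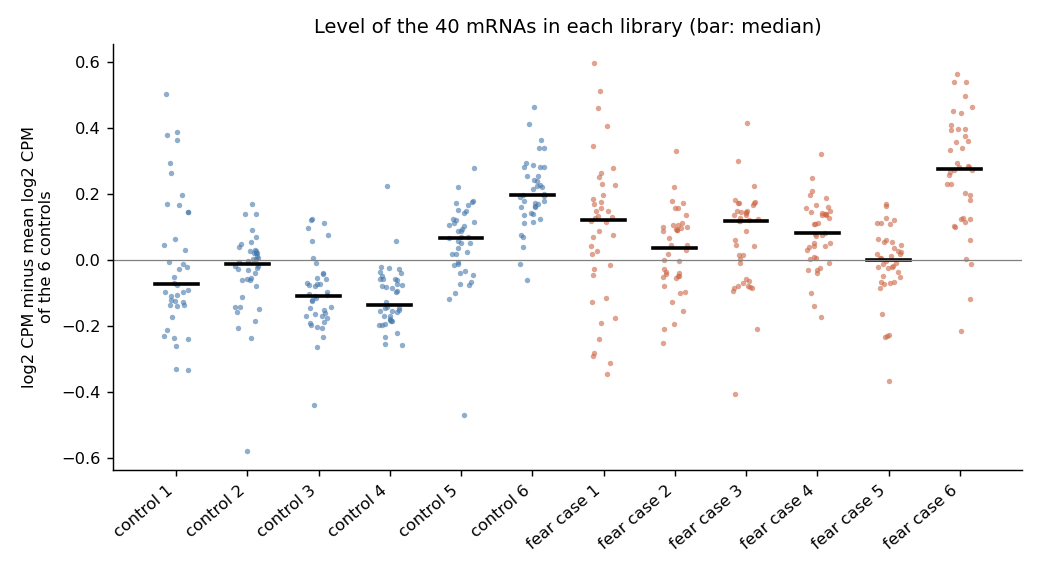
Log2 CPM of each of the 40 mRNAs in each library minus the mean log2 CPM of the 6 controls (points), with the median of the 40 as a bar. Control 6 and fear case 6 stand highest, with medians of 0.20 and 0.28, and the points of control 1 and fear case 1 are spread widest.

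Some libraries divided the 40 by the kind of protein they encode, and control 1 and fear case 1 did so in opposite directions. Control 1 was the highest control for 10 of the 40, or 25%, beside 20.7% of all tested genes. These 10 were Ryr2, Itpr1, Atp2b2, App, Sorl1, Lrp1, Celsr2, Celsr3, Dscam and Agap2. Apart from Agap2, these code for proteins made at the endoplasmic reticulum and held in membranes, and they are all of the calcium-handling and surface genes but Cltc. Control 1 was also the lowest control for 12 genes, among them Map1a, Map1b, Map2, Sptan1 and Ank3. The median difference from the control mean in control 1 was 0.25 for the 10 calcium-handling and surface genes and -0.10 for the other 30.

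In fear case 1 the medians were -0.18 and 0.15. The highest fear case value of Map1a, Map1b, Map2 and Sptan1 was in that library, and the lowest value of App, Sorl1, Celsr2 and Dscam. Kif1b, Kif5c and Apc, which encode no membrane receptor or pump, were also lowest there, and the motors had a median of -0.03. Fear case 2 ran the other way from fear case 1, with medians of 0.16 for the 10 and -0.01 for the other 30, and control 2 had -0.14 and 0.00. A division of 49 other FMRP-bound neuronal mRNAs along the same line, made after these values were seen, came out alike. Of 16 that encode membrane proteins, such as Grin2b and Ptprs, 16 lay above the control mean in control 1 and 1 in fear case 1, with medians of 0.29 and -0.23. Of the 33 others, 16 and 27 lay above it, with medians of -0.01 and 0.17. In fear case 2 the medians of the 16 and the 33 were 0.14 and -0.01, and in control 2 they were -0.14 and 0.03. These are single libraries, so the division is a description of them and carries no test.

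Length went with the sign of the change over all genes, not in the 40 alone. In deciles of the tested genes ordered by longest transcript, the median log2 fold change climbed from -0.08 in the shortest decile, where 29.4% were positive, to 0.06 in the longest, where 71.5% were. By library, the shortest decile had a median difference from the control mean of -0.26 in fear case 6 and -0.12 in control 6. It was -0.06 to -0.03 in fear cases 1 to 4, 0.03 in fear case 5, and 0.09 and 0.10 in controls 3 and 4. In the longest decile it was 0.19 in fear case 6, 0.12 in control 6 and -0.0008 in fear case 5. Fear cases 1 to 4 had 0.03 to 0.06 there. The 1369 genes of the longest decile outside the set had a median of 0.06 and 71.0% positive, beside 0.09 and 87.5% for the 40. Their medians by library followed those of the 40, with -0.05 in control 4, 0.11 in control 6 and 0.18 in fear case 6. When the fitted length trend was entered as an offset, the median of the 40 was 0.02 and 24 of 40 were positive. Whether length accounts for the values of the 40 was not tested.

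**Figure D4:**
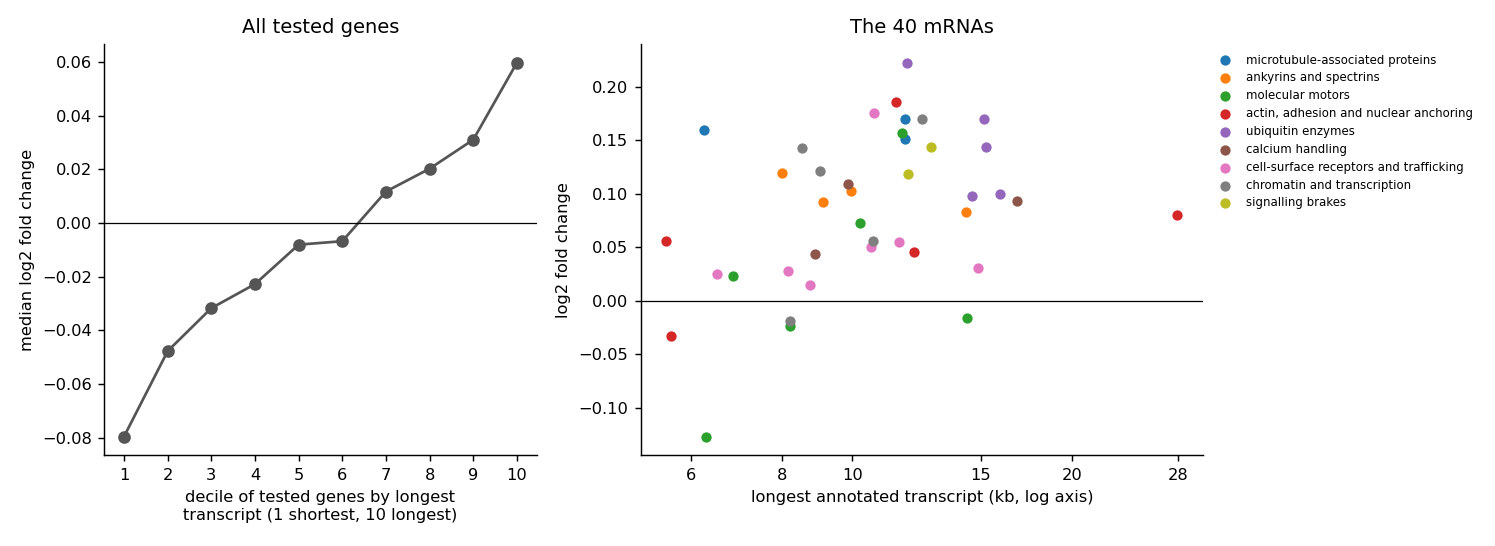
Left, median log2 fold change (fear case against control) of all tested genes in deciles of longest transcript length; right, the log2 fold change of each of the 40 mRNAs against its longest transcript (kb, log axis), coloured by role. The left panel climbs from -0.08 to 0.06, and the 40 lie mostly above 0.

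The share of a library's gene counts on genes of the longest decile was 19.0% ± 0.90 in controls and 20.3% ± 0.88 in fear cases (SD, n = 6 each), a difference of 1.27 percentage points (two-sided exact permutation test, p = 0.0346). In controls the lowest, median and highest values were 18.2%, 18.7% and 20.5%, and in fear cases 19.4%, 20.1% and 21.9%. Only 1 fear case library lay above all controls. The call did not hold with the 75th percentile of length as the threshold (exact permutation p = 0.0779) or with a replicate block (exact permutation p = 0.0625). Of the total without the precursor, the 40 mRNAs themselves took 2.53% ± 0.24 in controls and 2.63% ± 0.21 in fear cases.

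A single noncoding RNA made up much of this difference. Malat1, a nuclear RNA in the longest decile, rose from 12896 ± 2091 to 18901 ± 2805 CPM (SD, n = 6 each, log2 fold change 0.55, SE 0.10, edgeR adjusted p = 0.0280). Without the 40 and without Malat1 the difference was 0.56 percentage points (exact permutation p = 0.132), and with Malat1 but without the 40 it was 1.16 percentage points (exact permutation p = 0.0216). Leaving out a library ended the call in 6 of 12 cases: p was 0.0649 without control 1 and without control 2, 0.0693 without control 3 and 0.0671 without control 4. It was 0.0519 without the first fear case and 0.0628 without the sixth, all by the same exact permutation test.

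Within the 40, Spearman's rank correlation between the log2 fold change and a property of the mRNA was 0.38 for longest transcript, 0.33 for coding length, -0.48 for coding GC content, 0.06 for TGGA or AGGA density and 0.32 for ACTG or ACTT density. Over the 14030 tested genes with a length, the rank correlation with longest transcript was 0.23. These are descriptions across genes of the same 12 libraries. The genes with larger positive values tended to be longer and poorer in GC, and the density of TGGA or AGGA showed no such order. The tendency was loose: Usp9x had the lowest GC of the 40, 41.6%. The next in log2 fold change, Trio, Sorl1 and Herc1, had 54.9%, 54.0% and 47.3%, beside a median of 52.6%.

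The set holds 7 pairs of genes from 1 family, whose ratio within a library does not depend on how libraries are scaled. Map1a was at 0.627 times Map1b per kb of exon (0.556 to 0.667 over 12 libraries), Ank2 at 1.48 times Ank3 and Sptan1 at 1.59 times Sptbn1. Kif1a stood at 1.83 times Kif1b, Kif5a at 1.27 times Kif5c and Herc1 at 0.698 times Herc2. The widest gap was between Celsr2 and Celsr3, 9.83 times (7.13 to 13.1).

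The largest shift relative to its error was in Kif1a over Kif1b. The log2 ratio of counts had a mean of 0.00 ± 0.07 in controls and -0.09 ± 0.04 in fear cases (SD, n = 6 each), from -0.11 to 0.07 and from -0.14 to -0.03. All 6 fear case libraries had more Kif1b than Kif1a counts, and so did controls 3, 4 and 6. In 2 fear cases the ratio lay below that of every control. The difference was -0.09 (SE 0.03, two-sided exact permutation p = 0.0238, 0.167 after adjustment over the 7 pairs), so it did not pass. Without control 3 it was -0.12 with an adjusted p of 0.0303 in the same exact permutation test. With any other single library left out, the adjusted exact permutation p ran from 0.106 to 0.318. It was 0.219 with a replicate block, where only the signs of differences between same-numbered libraries were flipped. Those flips are so few that a pair standing alone among the 7 could not reach a lower adjusted value. That setting could therefore not call the shift.

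For Kif5a over Kif5c the difference was -0.16 (exact permutation p = 0.184, adjusted 0.644). The log2 ratio ran from 0.10 to 0.56 in controls and from -0.01 to 0.61 in fear cases, with the highest value in fear case 6. The 5 other pairs differed between groups by -0.04 to 0.03, each with an adjusted exact permutation p of 0.877. The smallest p that the relabellings of 6 and 6 libraries allow is 0.00216.

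**Figure D5:**
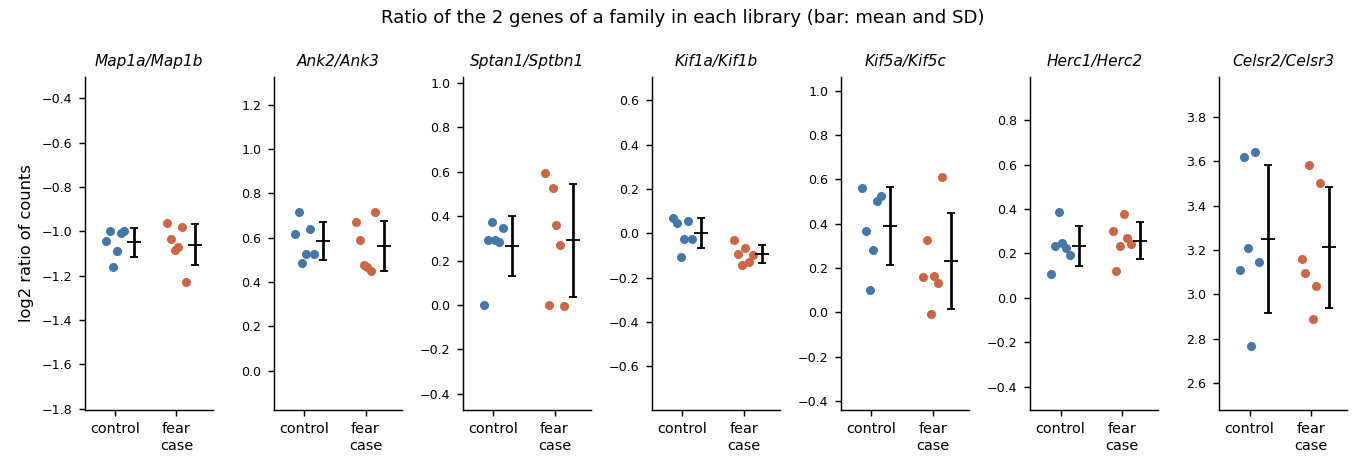
Log2 ratio of counts of the genes of each of the 7 family pairs in every library (points), with mean and SD per group as bars (6 libraries each). The groups overlap in each panel; Kif1a/Kif1b runs from -0.14 to -0.03 in fear cases against -0.11 to 0.07 in controls, and Kif5a/Kif5c has the largest difference in means.

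Other published FMRP targets and the FMRP machinery gave the setting for these values. Of 49 other FMRP-bound neuronal mRNAs, 0 passed the test, 2 had an unadjusted p under 0.05 and 37 were positive. The shares over all tested genes were 0.103%, 7.14% and 48.6%. The median log2 fold change of the 49 was 0.05. The lowest p was that of Mycbp2, a giant ubiquitin ligase of axons, at 333 ± 26.3 and 397 ± 43.1 CPM (SD, n = 6 each, 0.26, SE 0.08, edgeR adjusted p = 0.304), with 5 fear cases above all controls. Nbea, which codes for the trafficking scaffold neurobeachin, was at 598 ± 68.5 and 678 ± 62.5 CPM (0.18, SE 0.08, edgeR adjusted p = 0.6253). Birc6, a giant ubiquitin-conjugating enzyme, was at 191 ± 18 and 212 ± 22 CPM (0.15, SE 0.08, edgeR adjusted p = 0.716).

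Of 14 genes for FMRP and its partners, 0 passed, 2 had an unadjusted p under 0.05 and 12 were positive, with a median of 0.08. Over all tested genes these shares were 0.103%, 7.14% and 48.6%. Fmr1, the gene of FMRP, had control and fear case levels of 125 ± 7.97 and 138 ± 13.3 CPM (0.14, SE 0.07, edgeR adjusted p = 0.720). Nufip1, which codes for a nuclear protein that interacts with FMRP, was at 18.9 ± 1.72 and 24.4 ± 1.66 CPM (0.37, SE 0.09, edgeR adjusted p = 0.161), and its groups did not overlap, as for 0.268% of tested genes with all 6 fear cases above all controls. Stau2, an RNA transport protein, was at 132 ± 11.1 and 148 ± 7.51 CPM (0.16, SE 0.07, edgeR adjusted p = 0.601).

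Rapid activity genes, a list chosen with earlier results of these data known, had higher fitted levels in the fear cases of the same libraries. Of 10 such genes, 6 were called higher and all 10 were positive. Over all tested genes 0.103% were called in either direction and 48.6% were positive. Npas4, a neuron-specific activity-induced transcription factor, rose from 5.12 ± 1.34 to 21.4 ± 4.62 CPM (SD, n = 6 each, log2 fold change 2.06, SE 0.16, edgeR adjusted p = 2.96e-07). Fos, a subunit of AP-1, rose from 4.38 ± 1.6 to 20.9 ± 7.21 CPM (2.25, SE 0.23, edgeR adjusted p = 1.10e-05). These folds, 4.17 and 4.76, are far above those of the 40. They do not tell whether changes as small as those of the 40 would be called. The coefficient of variation of the 40 in controls had a median of 11.2%, from 5.48% for Ncor1 to 27.7% for Celsr3. Over all tested genes the median was 13.3%. Those genes reach down to a mean of 0.364 CPM, against 22.9 CPM for Celsr3, the lowest of the 40. The medians are not matched for level, so they do not tell whether the spread of the 40 is usual for such levels.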

How the data were processed

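Per the labels' protocols, RNA of the polyribosome pellet went into SMARTer total RNA libraries, which were read in pairs on a NextSeq500. The deposited files hold whole-number read counts per gene symbol. The build mm10 and the tools cutadapt, Bowtie, TopHat and HTSeq are named in the submitters' processing notes. For versions, annotation and strand setting, nothing is given in the sources used here. Summary lines were left out of library sizes and tests. Reads on no gene were 25.5% to 33.3% of the counted reads.

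The 40 genes, the other gene lists and the alternatives were chosen with earlier results of these data known. Genes were kept by edgeR's filterByExpr (minimum count 10, total 15), scaled by TMM and tested with edgeR 4.0.16 (R 4.3.3) by glmQLFit and glmQLFTest, 6 control against 6 fear case, with Benjamini-Hochberg adjustment over 14564 genes and a threshold of 0.05. CPM were taken relative to TMM-scaled library sizes. SE came from the log2 fold change and the root of the quasi-likelihood F. Approximate 95% intervals of fold changes came from it with a normal quantile, so they are somewhat narrower than the test implies. That of Herc1, 1.005 to 1.26, leaves out a fold of 1, though its unadjusted edgeR p is 0.0538. The script was tested on simulated data. DESeq2 1.42.0 and limma 3.58.1 (voom) were alternatives, beside other scalings, no filter, a replicate block, a choroid plexus covariate, a length-trend offset (lowess, span 0.3) and leaving out each library.

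Ratios of family pairs used log2 of count plus 0.5. Ratios and the long-gene share were compared by two-sided exact permutation over all relabellings. With the replicate block, the permutation flipped the signs of differences between same-numbered libraries. Lengths, coding sequences and windows came from GENCODE vM21 (GRCm38, the assembly of mm10), and a gene's exon length is the union of its exons. Full values are given for the 12 genes of the 40 with the lowest p, both genes of the 7 pairs and the 3 highest and 3 lowest per kb. The other genes of the 40 are given by level or fold change, and up to 3 lowest-p genes are named from each other gene list. The pan-neuronal, principal-cell and choroid plexus marker lists are given by summed level. Lists of oligodendrocyte, astrocyte, microglia, and endothelial and mural markers were also drawn up and are not described here. Gene counts of 18.6 M to 44.2 M left at least 274 counts per library for each of the 40, and counting error adds little to the spread.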

Additional observations from a re-analysis of the deposited data

Results flagged for a closer look

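A single library stood far from the other 5 of its group, by Dixon's criterion at its 95% critical value, in 7 of 96 sets of 6 values tested. Chance alone gives about 4.8 of 96.

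In the motors, fear case 6 was the far library for 3 genes. Kif5a was at 2324 CPM there with the next fear case at 1586 CPM, Kif1a at 934 CPM with the next at 827 CPM, and Kif1b at 1001 CPM with the next at 865 CPM. Fear case 6 is also the deepest library and has the largest 45S precursor share.

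Control 6 was the far library for the other 3 genes. Myo5a was at 805 CPM there with the next control at 656 CPM, the ubiquitin ligase Huwe1 at 531 CPM with the next at 448 CPM, and Apc at 512 CPM with the next at 453 CPM. Control 6 was the highest control for 28 of the 40 mRNAs.

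The log2 ratio of Sptan1 to Sptbn1 was -0.0021 in control 1, and the next lowest control was at 0.28. The part of depth or of any other property of these libraries in these values was not tested.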

How the results depend on the processing

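None of the 40 mRNAs passed the adjusted threshold in the main comparison or in any of the 21 other settings. Of 840 pairs of a gene and a setting, 787 kept the sign and 53 did not, and 23 genes kept it in all settings. The median log2 fold change stayed positive throughout, from 0.06 to 0.12 with 1 library left out. Over all genes, 15 passed, against 33 with total count scaling (7 higher, 26 lower), 37 without the low-count filter (11 higher, 26 lower), 61 by DESeq2 (13 higher, 48 lower), 5 with the choroid plexus covariate (5 higher, 0 lower) and 9 to 128 with 1 library left out. The 128 are without fear case 6 and the 9 without control 3 or without fear case 2. The causes were not tested.

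The other 17 genes changed sign in at least 1 setting. Total count scaling gave -0.011 for Kif5c, -0.014 for App, -0.012 for Lrp1, -0.0071 for Cltc and -0.019 for Dscam. The choroid plexus covariate gave 0.042 for Kif1a, 0.049 for Kif5a, -0.034 for Celsr3 and -0.031 for Dscam. The length offset gave -0.013 for Kif5c, -0.015 for Tln2, -0.018 for Syne1, -0.012 for Atp2b2, -0.027 for App, -0.056 for Lrp1, -0.0071 for Cltc, -0.015 for Celsr2, -0.010 for Celsr3, -0.036 for Dscam and -0.0059 for Ep400. With 1 library left out, values ran from -0.057 to 0.0062 for Agap2, -0.016 to 0.078 for Cltc, -0.075 to 0.12 for App, -0.082 to 0.12 for Lrp1, -0.043 to 0.17 for Celsr3, -0.022 to 0.057 for Kif5c, -0.021 to 0.058 for Dscam, -0.068 to 0.030 for Kif1a, -0.044 to 0.046 for Dync1h1, -0.058 to 0.023 for Cic, -0.011 to 0.17 for Ubr4, -0.032 to 0.093 for Atp2b2 and -0.019 to 0.13 for Celsr2.

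The long-gene share differed by 1.37 percentage points with the 75th percentile of length as the threshold (exact permutation p = 0.0779) and by 0.56 without the 40 and Malat1 (p = 0.132), the latter added after the data were seen, as were the version without the 40 alone and the other length divisor. It ran from 0.94 to 1.58 with 1 library left out. Ratios of family pairs then ran from -0.034 to 0.086 for Sptan1/Sptbn1, -0.053 to 0.0026 for Ank2/Ank3, -0.13 to 0.042 for Celsr2/Celsr3, -0.033 to 0.023 for Map1a/Map1b and -0.12 to -0.081 for Kif1a/Kif1b.

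Same-numbered libraries of the 2 groups did not deviate together: correlations were -0.17 to 0.05, and none correlated best with its own number. With the replicate block, 18 genes passed against 15, and 0 of the 40. The long-gene share differed by the same 1.27 percentage points with the replicate block (exact permutation p = 0.0625).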
